A study of Mus musculus with 10 samples.

Results

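The immediate-early transcription factors described here were Fos, Fosb, Fosl1, Jun, Junb, Egr1, Egr2, Ier2, Atf3 and Myc. They were taken by gene symbol and not by a measured value, though with earlier results of these data known. All 10 were found among the 25229 rows of the count table. ASPCs, the stem and precursor cells of adipose tissue, were sorted as CD45-CD31-Pdgfra+ cells from the stromovascular fraction of perigonadal white adipose tissue (gWAT) of WT mice. The sorted cells were plated in a medium with FBS and FGF, and were treated at confluence, without a passage, with the AHR ligand FICZ or with its vehicle, DMSO. RNA of the lysed cultures was sequenced in bulk, with 5 libraries of WT cells after 6 hr in DMSO and 5 libraries of WT cells after 6 hr in 100 nM FICZ. Strain, age and sex of the mice were not given in the labels of these libraries, and what a replicate number shared by both groups stands for was not given either. The comparison of the groups asks which transcripts differ in ASPCs after exposure to an AHR ligand.

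Immediate-early genes are switched on by signals such as growth factors, serum, calcium or stress without a need for new protein synthesis, and their short-lived transcripts usually peak soon after the signal and decline again within hours. FOS and JUN proteins pair to form AP-1, EGR proteins are zinc finger factors, ATF3 is a stress-induced relative of the AP-1 subunits, and MYC pairs with MAX to drive genes of growth and ribosome synthesis. In cultured adipocyte precursors several of these factors are among the first genes to respond when differentiation is triggered.

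Depth was similar in the groups, with totals of 38328611 to 50210111 counts for the DMSO libraries (median 44787417) and 40272024 to 47670865 counts for the FICZ libraries (median 42897708). Levels are given as CPM, counts scaled to a common library size with TMM factors. A floor of 3 counts corresponded to between 0.0597 and 0.0783 CPM, which covers counting error only. All 10 factors were above this floor in every library. Fosb had the fewest reads, between 22 and 45 per library, followed by Atf3 with 38 to 112 and Fos with 52 to 158. The other 7 factors had at least 365 counts in each library. Nothing in the labels says that the replicates were separate cultures or animals, so the p-values measure the spread between these libraries, which may be technical.

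The gate was compared with its marker genes. Pdgfra was at 1198 to 1391 CPM in DMSO and 1181 to 1472 CPM in FICZ. Ptprc, the gene of CD45, did not exceed 1.70 CPM, and Pecam1, the gene of CD31, did not exceed 1.62 CPM. The 6 endothelial markers together, Pecam1 among them, summed to between 64.7 and 87.2 CPM, most of it Tek at 52.9 to 76.7 CPM. All 8 progenitor markers were counted, with Col1a1 the most abundant, and their sum ranged from 5625 to 8522 CPM. One library stood apart in other markers. The summed level of the 11 hepatocyte markers in the table, led by Alb, was 3366, 1232, 1323, 3046 and 8209 CPM in DMSO replicates 1 to 5 and 1830, 1572, 1751, 1205 and 1622 CPM in FICZ replicates 1 to 5. DMSO replicate 5 was therefore the highest, and DMSO replicates 1 and 4 also lay above every FICZ library. The 10 immune cell markers, led by Csf1r, summed to 36.2, 25.9, 31.3, 31.3 and 58.0 CPM in DMSO and to 30.3, 29.5, 37.1, 25.6 and 25.9 CPM in FICZ, and DMSO replicate 5 was again the highest.

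No difference between FICZ and DMSO was detected for the immediate-early factors at 6 hr. With edgeR's quasi-likelihood test over 14251 genes and Benjamini-Hochberg adjustment, 0 of the 10 factors passed an adjusted p of 0.05, against 0.0211% of all genes tested, and each had an adjusted p of 0.999. An unadjusted p of at most 0.05 was reached by 0 of 10 as well, against 4.82% of all genes. DESeq2 and limma-voom also placed 0 of 10 past either threshold. The groups overlapped in log2 CPM for all 10 factors, whereas they lay apart for 0.47% of all genes. The log2 fold changes, FICZ against DMSO, ran from -0.12 for Atf3 to 0.19 for Egr2, 7 above 0 and 3 below, and each was smaller than its own standard error. Their median was 0.09, beside 0.01 over all genes tested. As bulk RNA was sequenced, fewer cells of a type and less RNA per cell cannot be told apart in any of these levels.

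In the same libraries the transcripts of 4 AHR target genes were higher with FICZ, which gives a scale for the intervals of the factors. The 95% interval of the fold change was 5.35 to 17.0 for Cyp1a1, 2.50 to 4.01 for Ahrr, 1.57 to 2.25 for Tiparp and 1.32 to 1.79 for Cyp1b1. Cyp1a1, Ahrr and Tiparp passed the adjusted threshold with edgeR, and with the replicate block Cyp1a1 and Ahrr did, while Tiparp had an adjusted p of 0.0509. With DESeq2 all 4 passed, with and without the block. Without the block, Ahrr passed whichever single library was left out. Cyp1a1 did not pass without DMSO replicate 1 (adjusted p 0.0741) or 2 (0.0924), or FICZ replicate 1 (0.0828), 2 (0.0738) or 3 (0.0692). Tiparp did not pass without DMSO replicate 1 (adjusted p 0.189), 2 (0.125), 3 (0.0650) or 4 (0.190), or FICZ replicate 1 (0.170), 2 (0.162) or 3 (0.0692), and Cyp1b1 passed without DMSO replicate 5 (0.0220). With all libraries Cyp1a1 also did not pass without a filter on low counts (0.0726) or with Alb as a covariate (0.0656), nor Tiparp under the stricter filter (0.0506) or with Alb (0.0537), so that with Alb 1 of the 4 passed, Ahrr. Without both libraries of replicate 5 none of the 4 passed (adjusted p 0.0615 each), and with the block as well, a fit chosen after seeing the data, all 4 did. Over all these fits and the other alternatives the log2 fold change ranged from 3.06 to 3.49 for Cyp1a1, 1.53 to 1.72 for Ahrr, 0.83 to 0.99 for Tiparp and 0.55 to 0.70 for Cyp1b1. For the 10 factors the intervals reached from 0.602 at the lowest, for Atf3, to 1.85 at the highest, for Fosl1, and all of them held a fold of 1. Changes of a size like that of Cyp1a1 or Ahrr thus lay outside the interval of every factor, while a fold of the size of Cyp1b1 lay within several. With the replicate block, the fold of Cyp1b1 was 1.549. It lay within the blocked intervals of Junb, up to 1.680, and Fos, up to 1.552, and outside those of the other factors.

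**Figure D1:**
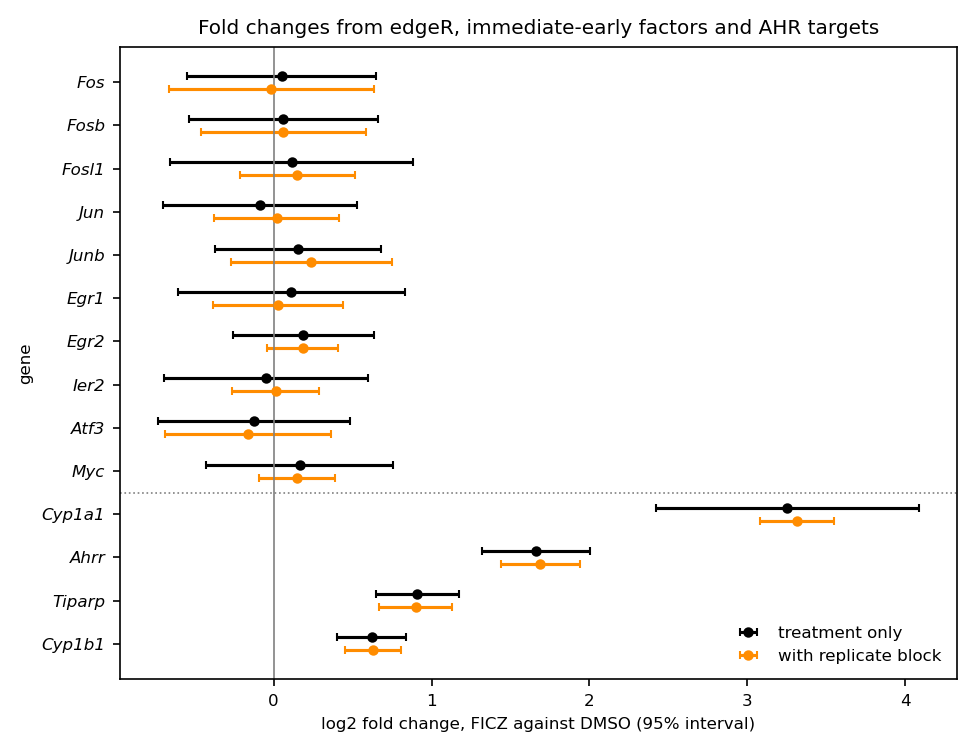
Log2 fold change of FICZ against DMSO (x axis) for the 10 immediate-early factors and, under the dotted line, 4 AHR target genes (y axis), from edgeR fits of 5 libraries a group. Points are estimates and bars 95% intervals, in black for treatment only and in orange with a block for the replicate number. The bars of all 10 factors cross 0 in both fits, and those of the 4 AHR targets do not.

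Among the FOS subunits, Fos (chr12:85473890-85477273 of GRCm38, plus strand) is the founding member. In DMSO replicates 1 to 5 it had 2.70, 2.57, 3.28, 2.05 and 2.94 CPM, and in FICZ replicates 1 to 5 it had 2.37, 3.35, 3.78, 3.32 and 1.20 CPM. FICZ replicate 5 was the lowest of the 10 libraries and FICZ replicate 3 the highest, so the FICZ libraries enclosed the whole DMSO range. The means were 2.71 ± 0.454 CPM with vehicle and 2.80 ± 1.03 CPM with FICZ (SD, n = 5). The log2 fold change was 0.05 (standard error 0.27), with a 95% interval of 0.685- to 1.57-fold.

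Fosb (chr7:19302696-19310051, minus strand), which encodes a FOS paralog, rested on few reads. Its level was 0.629, 0.502, 0.985, 0.783 and 0.575 CPM in DMSO replicates 1 to 5 and 0.515, 0.552, 0.757, 1.04 and 0.762 CPM in FICZ replicates 1 to 5. The highest DMSO library, replicate 3, and the highest FICZ library, replicate 4, were nearly level, and the lowest libraries of the groups were too. The log2 fold change of Fosb was 0.06 (standard error 0.27).

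Fosl1 (chr19:5447547-5455946, plus strand), the gene of FRA-1, had 87.5, 61.4, 95.0, 39.3 and 29.7 CPM in DMSO replicates 1 to 5, and 63.8, 74.0, 104, 65.6 and 30.9 CPM in FICZ replicates 1 to 5. Replicate 3 was the highest and replicate 5 the lowest in either group, and the groups overlapped over most of this range. The means of 62.6 ± 28.7 CPM with vehicle and 67.7 ± 26.2 CPM with FICZ (SD, n = 5) gave a log2 fold change of 0.11 (standard error 0.35), the widest error of the 10. Of its 2033 exonic bases, 1163 are overlapped by Ccdc85b on the opposite strand. How strand was used in counting was not given in the sources used here, so reads of these genes may not have been told apart. Ccdc85b itself had 42.4 ± 14.7 CPM with vehicle and 39.7 ± 8.31 CPM with FICZ (SD, n = 5).

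Of the JUN subunits, Jun (chr4:95049034-95052222, minus strand) encodes the main partner of FOS. It had 46.5, 33.3, 54.9, 29.4 and 15.0 CPM in DMSO replicates 1 to 5, and 34.2, 34.9, 41.3, 33.8 and 24.4 CPM in FICZ replicates 1 to 5. All FICZ libraries fell inside the DMSO range, whose extremes were replicates 3 and 5. The mean was 35.8 ± 15.5 CPM with vehicle and 33.7 ± 6.05 CPM with FICZ (SD, n = 5), for which the log2 fold change was -0.09 (standard error 0.28). Without DMSO replicate 5, the library rich in hepatocyte markers, the log2 fold change was -0.28 (standard error 0.19), and without DMSO replicate 3 it was 0.12 (standard error 0.27). The antisense gene Junos overlaps 232 of the 3189 exonic bases of Jun.

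Junb (chr8:84974484-84978718, minus strand), a JUN paralog that is a weaker activator, had 39.4, 34.5, 45.9, 30.5 and 14.5 CPM in DMSO replicates 1 to 5. In FICZ replicates 1 to 5 it had 36.2, 39.0, 33.8, 43.1 and 31.3 CPM. DMSO replicate 5 lay far below the other 9 libraries, and all FICZ libraries again fell inside the DMSO range. The mean was 33.0 ± 11.8 CPM with vehicle and 36.7 ± 4.60 CPM with FICZ (SD, n = 5). The log2 fold change was 0.16 (standard error 0.24) with all libraries and -0.03 (standard error 0.13) without DMSO replicate 5. With log2 CPM of Alb added as a covariate it was -0.13 (standard error 0.17). Prdx2 overlaps 173 of the 2301 exonic bases of Junb on the opposite strand. Prdx2 itself had 200 ± 35.1 CPM with vehicle and 189 ± 15.2 CPM with FICZ (SD, n = 5).

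Of the zinc finger factors, Egr1 (chr18:34859823-34864984, plus strand) had 20.3, 18.5, 35.1, 16.9 and 17.5 CPM in DMSO replicates 1 to 5, and 15.9, 23.4, 43.1, 23.2 and 11.2 CPM in FICZ replicates 1 to 5. Replicate 3 stood above the rest in both groups, and the lowest library was FICZ replicate 5. The highest library had 3.84 times the level of the lowest, the widest ratio among the 10 factors. The means were 21.6 ± 7.62 CPM with vehicle and 23.4 ± 12.2 CPM with FICZ (SD, n = 5), and the log2 fold change of 0.11 (standard error 0.33) became -0.23 without FICZ replicate 3 and 0.35 without DMSO replicate 3.

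Egr2 (chr10:67535475-67542188, plus strand), also known as Krox20 and as an early gene of adipogenesis in culture, had 43.3, 30.1, 48.9, 28.6 and 29.9 CPM in DMSO replicates 1 to 5. In FICZ replicates 1 to 5 it had 40.2, 40.3, 59.7, 35.9 and 29.5 CPM. Replicate 3 was the highest in each group, and FICZ replicate 5 lay among the 3 lowest DMSO libraries. The means were 36.2 ± 9.34 CPM with vehicle and 41.1 ± 11.3 CPM with FICZ (SD, n = 5). Without the block its log2 fold change was 0.19 (standard error 0.20), with an interval of 0.835- to 1.55-fold, and 0.014 without FICZ replicate 3. With the replicate number as a block and both libraries of replicate 5 left out, a fit chosen after the data were seen, its log2 fold change was 0.23 (edgeR, unadjusted p = 0.0454, adjusted p = 0.835), so that 1 of the 10 factors was under an unadjusted p of 0.05, where 5.91% of all genes were. Over all fits its adjusted p in edgeR, DESeq2 or limma-voom lay between 0.835 and 1.00. The EGR corepressor genes Nab1 (log2 fold change 0.08, standard error 0.06) and Nab2 (log2 fold change -0.12, standard error 0.20) were likewise not past either threshold.

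Ier2 (chr8:84661331-84662852, minus strand), a short single-exon gene of a nuclear immediate-early protein, had 18.4, 15.8, 24.6, 11.2 and 7.49 CPM in DMSO replicates 1 to 5, and 16.2, 16.4, 19.1, 14.5 and 8.59 CPM in FICZ replicates 1 to 5. The FICZ libraries lay inside the DMSO range, and replicate 3 was the highest and replicate 5 the lowest in both groups. The log2 fold change was -0.05 (standard error 0.30) with all libraries and -0.23 (standard error 0.25) without DMSO replicate 5.

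Atf3 (chr1:191170296-191218039, minus strand) had 1.68, 1.57, 2.40, 1.87 and 1.23 CPM in DMSO replicates 1 to 5, and 1.29, 2.38, 1.46, 2.00 and 0.878 CPM in FICZ replicates 1 to 5. DMSO replicate 3 and FICZ replicate 2 were the highest, FICZ replicate 5 the lowest, and the groups overlapped. Its mean was 1.75 ± 0.433 CPM with vehicle and 1.60 ± 0.592 CPM with FICZ (SD, n = 5), and its log2 fold change of -0.12 (standard error 0.28) was the lowest of the 10.

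Myc (chr15:61985391-61990374, plus strand) had 53.2, 42.8, 62.6, 33.5 and 28.0 CPM in DMSO replicates 1 to 5, and 47.3, 53.1, 75.0, 45.1 and 26.4 CPM in FICZ replicates 1 to 5. In both groups replicate 3 was the highest and replicate 5 the lowest, and the groups overlapped. The means were 44.0 ± 14.1 CPM with vehicle and 49.4 ± 17.5 CPM with FICZ (SD, n = 5). The log2 fold change was 0.17 (standard error 0.27), with an interval of 0.744- to 1.69-fold. It was 0.04 without DMSO replicate 5 and -0.03 without FICZ replicate 3.

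**Figure D2:**
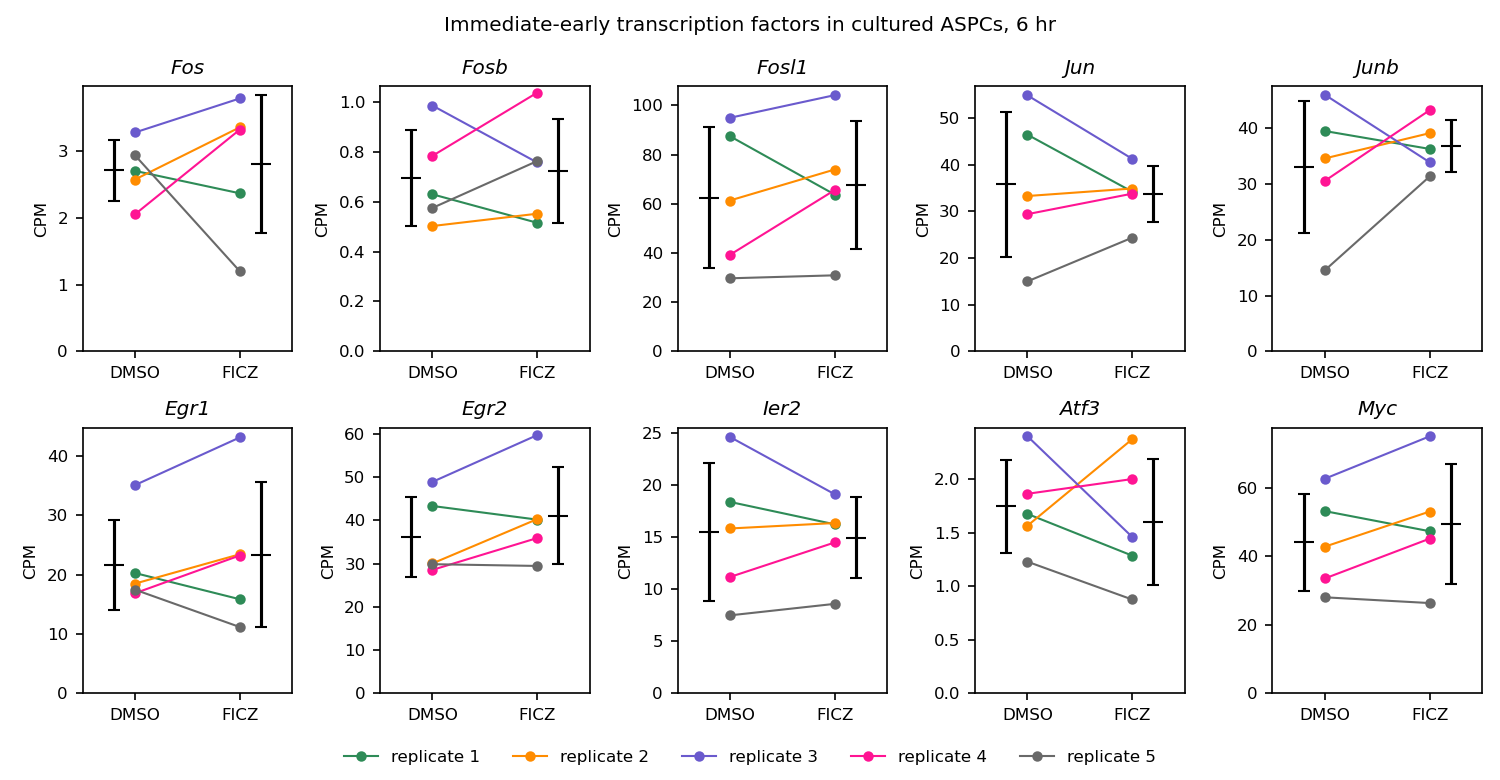
CPM (y axis, from 0) of each of the 10 factors in DMSO and FICZ libraries (x axis). Points are libraries, lines join libraries with the same replicate number, and the black marks beside them are the mean and SD of 5 libraries. Lines slope both ways in every panel, and replicate 3 is at the top of the DMSO libraries throughout.

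To set the factors against each other, the level was divided by exonic length. In CPM per kb, as the mean ± SD of all 10 libraries, Fosl1 came first with 32.0 ± 12.8, followed by Myc with 17.2 ± 5.61, Junb with 15.1 ± 3.77 and Egr2 with 11.4 ± 2.98. Jun at 10.9 ± 3.49 CPM per kb, Ier2 at 10.0 ± 3.37 CPM per kb and Egr1 at 5.02 ± 2.15 CPM per kb came next. Fos at 1.17 ± 0.321 CPM per kb, Atf3 at 0.778 ± 0.230 CPM per kb and Fosb at 0.114 ± 0.0304 CPM per kb closed the order. Within libraries Fosl1 was above Myc in 10 of 10, while Myc exceeded Junb in 7, Junb exceeded Egr2 in 8, Egr2 exceeded Jun in 5 and Jun exceeded Ier2 in 9. The order of these neighbours from Myc to Ier2 was thus not the same in every library. Ier2, Egr1, Fos and Atf3 were each above the next gene in all 10 libraries. The places of Fosl1, Junb and Jun are uncertain to the extent that reads of Ccdc85b, Prdx2 and Junos were counted with them. Exonic length was that of the exons of all annotated transcripts of a gene merged, 6243 bases for Fosb. It can exceed the length of the transcript expressed, so a level per kb may be too low and close neighbours could change places.

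Differences between libraries of 1 treatment were larger than those between the treatments. DMSO replicate 3 was the highest DMSO library for 10 of the 10 factors, and DMSO replicate 5 the lowest for 6. In FICZ, replicate 3 was the highest for 7 and replicate 5 the lowest for 9. Summed over the 10 factors the level was 314, 241, 374, 194 and 147 CPM in DMSO replicates 1 to 5, and 258, 287, 382, 268 and 165 CPM in FICZ replicates 1 to 5. Replicate 3 was thus the highest and replicate 5 the lowest in either treatment, with the other 3 numbers in between.

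The SD of log2 CPM over the 10 libraries had a median of 0.48 for the factors and 0.22 for all genes tested. The factor with the smallest spread, Fosb, was still at percentile 73.5 of all genes, and the one with the largest, Fosl1, at percentile 91.4. The replicate number accounted for a median of 82.3% of the sum of squares of log2 CPM in the factors, beside 58.1% over all genes tested, and the treatment for a median of 1.04%, beside 4.35%. With 5 replicate numbers and only DMSO and FICZ as treatments, the number takes the larger share even of random spread. Each share is therefore to be read beside that of all genes and not beside the other. In gene lists described below, the median share of the replicate number was 81.8% for AP-1 targets, 79.8% for adipocyte markers and 78.5% for MYC targets. It was 77.6% for other immediate-early genes, 63.5% for upstream kinases and factors, 62.0% for other AP-1 subunits and partners and 37.9% for hepatocyte markers. Among the factors this share was highest for Ier2, at 93.2%, Myc, at 91.0%, and Fosl1, at 88.8%. It was lowest for Fos, at 42.8%, and Junb, at 55.8%, in which the libraries of replicate 5 lay apart from each other.

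**Figure D3:**
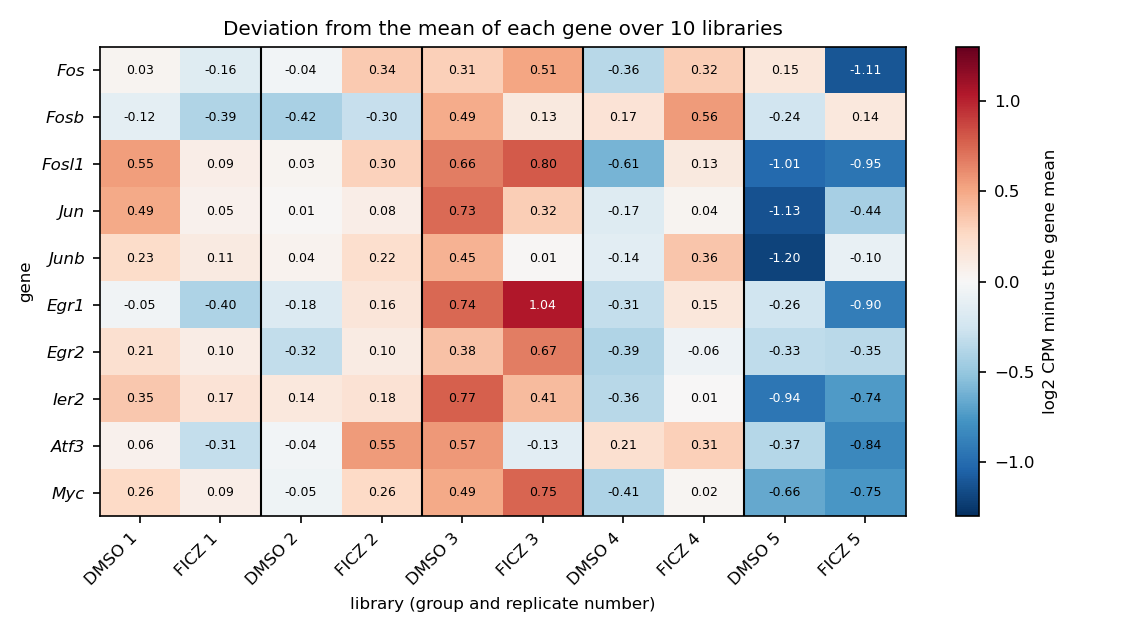
Log2 CPM of each factor (y axis) in each library (x axis, same-numbered libraries side by side) minus the mean of that gene over the 10 libraries, printed in each field and coloured from blue (below) to red (above). Both replicate 3 columns are mostly red and both replicate 5 columns mostly blue, while DMSO and FICZ columns show no common shade.

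Most of the factors varied together across the libraries. All 45 pairs of factors had a Pearson coefficient of log2 CPM above 0 over the 10 libraries, the median coefficient was 0.64, and 19 pairs (42.2%) were above 0.7. Over all pairs of tested genes 49.9% were above 0, the median was -0.0018 and 7.06% were above 0.7. The pairs with Fosb lay between 0.08 and 0.37. Genes of 1 library share its culture, depth and treatment. The highest coefficients were those of Fosl1 with Myc, 0.98, Fosl1 with Ier2, 0.96, and Jun with Ier2, 0.95. Fos went most closely with Egr1, 0.84, and least with Fosb, 0.08, whose low counts limit any coefficient. Outside the list, the genes most like Fos by this measure over the 10 libraries were Noc4l (0.94), Eef1akmt3 (0.93), Ptger4 (0.91), Mob3a (0.90) and Nploc4 (0.90). Egr1 was followed most closely by Spry4 (0.96), Rasal2 (0.96), Kctd11 (0.95) and Enc1 (0.95). The genes nearest to Myc were Sh2b3 (0.99), Pvr (0.99), Hmox1 (0.99), Usp10 (0.98) and Tmem200a (0.98). All of these were picked as the highest among all tested genes over only 10 libraries. Such a search yields high coefficients by itself, and a link with the factor was not tested. Eef1akmt3 also had a low mean level, 0.945 CPM with vehicle and 0.862 CPM with FICZ, and the counts of Fos were low too.

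As same-numbered pairs, the factors all differed in 1 direction in 3 of the 5 pairs, but not in the same direction. In pair 1 all 10 were lower with FICZ (median log2 difference -0.23), and in pairs 2 and 4 all 10 were higher (0.29 and 0.41). Pairs 3 and 5 each had 5 higher and 5 lower, with medians of -0.11 and 0.02. Of all genes tested, 50.4%, 51.9%, 55.0%, 50.3% and 52.3% were higher with FICZ in pairs 1 to 5. A pair compares 1 library with 1 library, and the factors of a library are not replicates of its treatment. None of the 10 factors was higher with FICZ in all 5 pairs, where 4.32% of all genes were, and none was lower in all 5, where 2.81% were. Fosl1 was higher in 4 pairs, Atf3 in 2 and the other 8 factors in 3.

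A fit with the replicate number as a block lowered the standard error for 9 of the 10 factors, with Fos as the exception. No factor passed the adjusted threshold with the block, against 0.0561% of all genes, or an unadjusted p of 0.05, against 4.65% of all genes. Intervals narrowed most where same-numbered libraries went together. For Ier2 the blocked interval was 0.834- to 1.22-fold, for Myc 0.939- to 1.31-fold, for Egr2 0.973- to 1.32-fold and for Fosl1 0.861- to 1.43-fold. For Fos it was 0.630- to 1.55-fold with the block and 0.685- to 1.57-fold without it. For Junb it was 0.829- to 1.68-fold with the block and 0.774- to 1.60-fold without it. The direction of the list rested on single libraries. Its median log2 fold change of 0.09 became 0.26, with all 10 above 0, without DMSO replicate 3, and it became -0.09, with 3 above 0, without FICZ replicate 3. With the replicate block it was 0.04, with 8 above 0, and without FICZ replicate 5 it was 0.21, with 9 above 0. Without DMSO replicate 5 it was -0.02, with 4 above 0, and with log2 CPM of Alb added as a covariate it was -0.10, with 3 above 0.

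Promoter sequence was examined because most of the factors varied together across libraries. RefSeq promoter windows of GRCm38.p6 were matched for 6 of the 10 factors, Fos, Fosb, Jun, Junb, Egr2 and Atf3, and not for Egr1, Fosl1, Ier2 and Myc. The 250 bases before each start were searched on both strands, in 32851 windows of 27025 genes, 11201 of them tested here. A gene was counted once if any of its windows held a match, and Egr2 had 5 windows, the other 5 factors 1 each and the tested genes 1.27 on average. The CArG box, bound by SRF, was in 1.62% of all genes, 1.37% of tested genes and 1 of the 6 genes, Egr2. The full cAMP response element TGACGTCA was in 1.77% of all genes, 2.94% of tested genes and none of the 6, whereas its core TGACG, which every full element contains, was in 19.8% of all genes, 29.4% of tested genes and 5 of the 6 genes, all but Jun. The AP-1 site TGACTCA was in 5.16% of all genes, 4.22% of tested genes and none of the 6. The core of the xenobiotic response element, GCGTG, to which AHR binds with ARNT, was in 30.9% of all genes, 48.6% of tested genes and 3 of the 6 genes, Fos, Junb and Atf3. These matches are descriptions of the letters and say nothing about binding. Sequence more than 250 bases before a start was not searched, so a gene without a match here, Fos for the CArG box included, may hold one there. The stretches shown are upstream of the start of Fos (chr12:85473650-85473889, plus strand), Junb (chr8:84978749-84978883, minus strand) and Egr2 (chr10:67537734-67537868, plus strand), since they hold the matches named, and none of their bases is exonic in the GENCODE annotation used. The stretch of Egr2 lies within the span annotated for the gene, in intronic sequence before a start that is not its first. The window searched for Atf3 (chr1:191183284-191183583, minus strand), not shown, also lies within the span annotated for its gene. Capitals mark GCGTG and TGACG in Fos and Junb, and the CArG box and TGACG in Egr2. A match on the other strand reads as CACGC or CGTCA.
Fos: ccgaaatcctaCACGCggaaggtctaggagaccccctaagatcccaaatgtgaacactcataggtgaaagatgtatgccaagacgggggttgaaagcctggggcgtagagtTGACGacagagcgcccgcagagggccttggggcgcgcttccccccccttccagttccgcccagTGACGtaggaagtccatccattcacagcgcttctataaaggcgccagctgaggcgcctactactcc
Junb: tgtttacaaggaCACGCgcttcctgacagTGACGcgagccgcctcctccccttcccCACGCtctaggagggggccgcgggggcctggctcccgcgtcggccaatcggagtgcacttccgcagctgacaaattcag
Egr2: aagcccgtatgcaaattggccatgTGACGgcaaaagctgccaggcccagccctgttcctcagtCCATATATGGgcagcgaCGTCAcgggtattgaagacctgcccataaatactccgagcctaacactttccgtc

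Genes that work with the factors were counted from lists, beside the same background of 4.82% of all genes at an unadjusted p of at most 0.05 and 4.65% with the replicate block. None of the genes in these lists passed the adjusted threshold with edgeR or, without the block, with DESeq2, and 1 did with DESeq2 and the replicate block, Mmp10. Of 13 other AP-1 subunits and partners, 0 had an unadjusted p of at most 0.05 in either fit, and their log2 fold changes ran from -0.21 for Batf3 to 0.36 for Batf2. Of 19 kinases and factors upstream of the immediate-early genes, 0 did so in either fit, with log2 fold changes from -0.18 for Rps6ka1 to 0.16 for Elk4. The median SD of log2 CPM was 0.32 in the former list and 0.14 in the latter, beside 0.48 for the 10 factors. In lists described below it was 0.38 for AP-1 targets, 0.35 for MYC targets, 0.31 for other immediate-early genes and 0.87 for hepatocyte markers.

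Of 47 other immediate-early and primary response genes tested, 1 was higher and 1 lower with FICZ at an unadjusted p of at most 0.05. This count of 2 became 0 with Alb as a covariate, or without DMSO replicate 2, 4 or 5 or FICZ replicate 1 or 2. It became 3 without FICZ replicate 3. Ier3, a gene of a stress-inducible survival protein, had 17.5 ± 3.87 CPM with vehicle and 22.5 ± 3.51 CPM with FICZ (SD, n = 5), and was higher in 5 of 5 pairs. This was 0.36 ± 0.16 (standard error) as a log2 fold change, with an adjusted p of 0.999 in edgeR. Dusp1, the gene of a MAP kinase phosphatase, had 13.6 ± 0.490 CPM with vehicle and 11.8 ± 1.22 CPM with FICZ (SD, n = 5), a log2 fold change of -0.20 ± 0.09 (standard error) with an adjusted p of 0.999 in edgeR. Dusp1 was lower in 5 of 5 pairs. With the block 2 genes were higher, Ier3 and Ccn1 (log2 fold change 0.32, standard error 0.12), and 2 lower, Dusp1 and Zfp36l1 (log2 fold change -0.26, standard error 0.10). The median log2 fold change of the list was -0.03, beside 0.09 for the 10 factors. It was -0.15, with 8 above 0, without FICZ replicate 3, and 0.05, with 29 above 0, without DMSO replicate 3.

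Of 12 genes of the MYC, MAX and MXD family, 0 were higher and 1 lower at an unadjusted p of at most 0.05, in either fit. Mlxipl, which encodes the glucose-sensing factor ChREBP, had 9.89 ± 8.14 CPM with vehicle and 4.29 ± 0.671 CPM with FICZ (SD, n = 5). DMSO replicate 5, the library rich in hepatocyte markers, had 23.9 CPM of it, and the other DMSO libraries had 9.02, 3.90, 4.60 and 8.02 CPM. For Mlxipl the log2 fold change was -1.21 (standard error 0.43), and Mycn had the highest of the family, 0.26 (standard error 0.41). Of 26 textbook MYC targets of growth and ribosome synthesis, 0 were past an unadjusted p of 0.05 without the block and 3 were higher with it, Gnl3 (0.31 log2, standard error 0.11), Tfrc (0.19 log2, standard error 0.08) and Polr1b (0.14 log2, standard error 0.06). The log2 fold change was above 0 for 25 of the 26, all but Cdk4, and its median was 0.13, beside 53.8% of all genes above 0 and a median of 0.01. The median deviation of these 26 genes from their means was lowest in DMSO replicate 5, at -0.84 log2, the library with 8209 CPM of hepatocyte markers. Without that library 11 of the 26 were above 0 and the median was -0.01, and with Alb as a covariate 7 were above 0 and the median was -0.03. Without both libraries of replicate 5, 21 were above 0 and the median was 0.04, and with the replicate block in addition 22 were above 0, the median was 0.05 and 4 had an unadjusted p of at most 0.05. In that last fit, chosen after the data were seen, 5.91% of all genes had such a p. What part the hepatocyte transcripts had in the shift of these 26 genes was not tested.

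Of 17 textbook AP-1 targets, 0 were past an unadjusted p of 0.05 without the block, and with it 2 were higher and 1 lower. Mmp10, a secreted metalloproteinase gene, had 8.47, 6.41, 10.1, 4.35 and 4.13 CPM in DMSO replicates 1 to 5, and 11.6, 10.4, 16.6, 5.55 and 5.66 CPM in FICZ replicates 1 to 5. It was higher with FICZ in 5 of 5 pairs although the groups overlapped, with 0.54 ± 0.09 (standard error) as the log2 fold change of the blocked fit and an adjusted p of 0.425 in edgeR. DESeq2 with the replicate block gave 0.54 ± 0.13 (standard error) and an adjusted p of 0.0498, and Mmp10 did not pass under any other alternative. Hmox1, the heme oxygenase gene, had a blocked log2 fold change of 0.24 (standard error 0.09), and Mmp9 one of -1.06 (standard error 0.39) at mean levels of 0.363 CPM with vehicle and 0.181 CPM with FICZ. The highest log2 fold change of the list without the block was that of Mmp13, 0.65 (standard error 0.55). Of the 17 targets 8 were above 0, with a median of -0.01. Without FICZ replicate 3, 4 were above 0 (median -0.13), and without FICZ replicate 5, 13 were (median 0.14). With the block and without replicate 5, a fit chosen after the data were seen, 12 were above 0 (median 0.11). In that edgeR fit 4 had an unadjusted p of at most 0.05, where 5.91% of all genes did. Of 10 inducible heat shock genes, 0 were past an unadjusted p of 0.05 in either fit, with log2 fold changes from -0.20 for Hspa1b to 0.25 for Hsph1.

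The other marker lists were read beside the factors. Of all 14251 genes tested, 190 were higher and 497 lower with FICZ at an unadjusted p of at most 0.05 without the block. With the block 354 were higher and 309 lower. The 11 hepatocyte markers all had an unadjusted p of at most 0.05 in the direction lower with FICZ without the block and 0 did with it. Their median log2 fold change was -1.13 without the block and -0.79 with it, with all 11 below 0 in both fits. Without DMSO replicate 5 the median was -0.52 and 0 had such a p. Without FICZ replicate 2 the count was 6, and without FICZ replicate 4 it was 2. Alb was at 4782 CPM in DMSO replicate 5. Of 10 immune markers tested, 3 were lower, C1qa, C1qb and Cd163, and with the block 1, Cd163. Without DMSO replicate 5, 0 of the immune markers had such a p. Of 5 mature adipocyte markers tested, 2 were lower in both fits, Cidec and Cfd, at mean levels not above 2.23 CPM. The adipocyte list, led by Plin1, summed to between 4.65 and 22.9 CPM, and 1 of its 6 genes, Lep, had 0 counts in every library. Of 5 endothelial markers tested, led by Tek, 0 differed without the block and Pecam1 was lower with it. Of 5 mesothelial markers, 0 differed without the block and Upk3b was higher with it, and of 8 progenitor markers 0 differed without the block and Cd34 was lower with it. None of these passed the adjusted threshold with edgeR. Pair by pair, the hepatocyte markers were higher with FICZ in pairs 2 and 3 (11 of 11 each) and lower in pairs 1, 4 and 5 (11 of 11 each), while the 10 factors were all higher in pairs 2 and 4 and all lower in pair 1.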

How the data were processed

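Bulk RNA of 10 libraries was analysed from the table of raw counts per gene symbol that the authors deposited, without normalization. Per the submitters' notes reads were aligned with STAR 2.7.7 to mm10. The counting program, its annotation and its use of strand were not given in the sources used here. Groups came from the labels.

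Genes were tested by quasi-likelihood in edgeR 4.0.16 (R 4.3.3) with TMM factors and robust dispersions, on the 14251 of 25229 rows that passed filterByExpr, and Benjamini-Hochberg adjustment over them with a threshold of 0.05. The code was also run on simulated counts with known changes. These had the same dispersion for every gene and no replicate effect, so the run checks the code and not the fits of these data. Intervals are 95% intervals from the edgeR fits of the real counts. Log2 CPM used a prior count of 2. Coordinates, exon lengths and overlaps came from GENCODE vM21 of GRCm38, in which 96.5% of symbols were found.

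The labels give both groups the replicate numbers 1 to 5. Deviations from the group means of same-numbered libraries correlated across genes at 0.27, 0.28, 0.15, 0.32 and 0.24 (mean 0.25, other numbers -0.06), and 6 of the 10 libraries correlated best with their own number. Since every pair was above 0.1, the numbers were taken to pair the libraries, and a fit with the number as a block stands beside the one without it.

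Alternatives were other scalings and filters, no robust option, limma-voom (limma 3.58.1), DESeq2 1.42.0 with and without the block, Alb as a covariate, and leaving out libraries. The 10 factors and all gene lists were chosen with earlier results of these data known. The genes named are the 10 factors and 4 AHR targets, and of each list those with an unadjusted p of at most 0.05 in either fit, the highest and lowest log2 fold changes (markers excepted) and the most abundant marker, with the 5 genes most like Fos, Egr1 and Myc. Of hepatocyte markers Alb alone is named. Ptprc, Pdgfra and the overlapping genes were named after their values were seen.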

Additional observations from a re-analysis of the deposited data

Results flagged for a closer look

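In the DMSO libraries the level of Egr1 in replicate 3, 35.1 CPM, lay far from the other 4, which ranged from 16.9 to 20.3 CPM. On the scale of log2 CPM the gap to the nearest library was 0.749 of the range of the group, above the critical value of Dixon's test for 5 values. Of 20 groups examined this way, the 10 factors in each treatment, 1 was past it, and chance gives about 1. FICZ replicate 3 was also the highest of its group, at 43.1 CPM.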

How the results depend on the processing

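None of the 10 factors passed the adjusted threshold under any of the alternatives run, and none had an unadjusted p of at most 0.05 except Egr2 in the fit with the replicate block without replicate 5, chosen after seeing the data, which gave 1 of 10. The smallest adjusted p of a factor was 0.835. The replicate block changed no call of a factor. The count of all genes past the threshold was 3, and it was 8 with the replicate block, 16 with DESeq2, 26 with DESeq2 and the replicate block, 0 without replicate 5, 8 with the replicate block without replicate 5, and 1 to 4 without single libraries.

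The sign of small fold changes was not stable, and the cause was not tested. With the replicate block, limma-voom, and DESeq2 with the block in turn, the log2 fold change was -0.016, -0.041 and -0.023 for Fos, 0.019, 0.031 and 0.016 for Jun, and 0.012, 0.026 and 0.0070 for Ier2. With Alb as a covariate it was -0.072 for Fosb, -0.12 for Fosl1, -0.13 for Junb and -0.031 for Egr1, and it moved without a change of sign from -0.086 to -0.35 for Jun, from -0.051 to -0.30 for Ier2, from -0.12 to -0.31 for Atf3, from 0.19 to 0.12 for Egr2, and to 0.022 for Fos and 0.0035 for Myc. Without both libraries of replicate 5 it was -0.027 for Fosb, and -0.030 with the replicate block. Leaving out 1 library, or both of replicate 5, it ranged from -0.079 to 0.26 for Fos, -0.10 to 0.22 for Fosb, -0.095 to 0.31 for Fosl1, -0.28 to 0.12 for Jun, -0.034 to 0.31 for Junb, -0.23 to 0.35 for Egr1, -0.23 to 0.18 for Ier2, -0.31 to 0.020 for Atf3 and -0.035 to 0.33 for Myc. Egr2 was above 0 in all of these, from 0.014 to 0.32. Fosb was not tested under the stricter filter of 1 CPM in 5 libraries.

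Limits: there is 1 time point, so levels soon after the ligand was added were not measured here. Low counts limit Fosb, Atf3 and Fos. An adjusted p above the threshold does not show that levels were equal, and the intervals give the sizes that these libraries leave possible.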
